A study of Arabis alpina with 23 samples.

Results

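The genes described here are the 59 of 34220 annotated Arabis alpina genes whose deposited description contains the word WRKY. They were chosen by that description alone, without use of their expression, and were followed through 8 groups of axillary bud and shoot apex libraries. WRKY proteins are plant transcription factors named after a short conserved peptide next to a zinc finger, and they bind W-box elements in the promoters of their target genes. In Arabidopsis, group I members carry a pair of WRKY domains, group II members carry one and group III members have a variant zinc finger. Many members are switched on by pathogen signals, salicylic acid, jasmonate, wounding, drought or temperature, often downstream of mitogen-activated protein (MAP) kinases. Others act in senescence or in trichome, seed and embryo development.

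Young axillary buds (AB) with a single leaf primordium were compared with the shoot apical meristem (SAM) of the same plants, also taken with one primordium, in the Pajares accession of this perennial relative of Arabidopsis. Plants grew in long days at 24 °C by day and 18 °C by night and were sampled when 4 weeks old (stage 1) and 8 weeks old (stage 2). They were sampled again after 4 weeks (stage 3) and 7 weeks (stage 4) of cold at 4 °C in long days. Stage and cold therefore move together with plant age in the later steps and cannot be told apart. The groups were AB at stages 1 to 4, with 2, 3, 3 and 3 libraries, and SAM at stages 1 to 4, with 3 libraries each. Each library was made from total RNA of a pool of 120 to 150 dissected buds or apices, and all plants carried the same genotype. Total mapped reads ranged from 13973874 to 15655452 per AB library and from 12247645 to 26218502 per SAM library, and 44 to 51 of the 59 genes had a read in an AB library against 42 to 52 in a SAM library. The meristem genes described as shoot meristemless, wuschel-like and clavata 3 had reads in every library of both tissues. The wuschel-like gene was higher in AB than in SAM at stages 1, 2 and 3, while Aa_G408930 (shoot meristemless) had log2 differences of -0.29, -0.28 and -0.28 there (adjusted p = 0.0912, 0.0616 and 0.0552 in edgeR) and the clavata 3 gene was not called. In such bulk samples, fewer cells of a type and less RNA per cell cannot be told apart.

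A small set of low genes varied strongly between libraries of one group. The genes Aa_G55810 (WRKY22), Aa_G46770 (WRKY42-like), Aa_G348140, Aa_G489080 (WRKY31) and Aa_G218560 (WRKY9) were high in SAM stage 1 replicate 3, in SAM stage 2 replicates 1 and 2 and in AB stage 3 replicate 1, and low in most other libraries of those groups. A single apex library, SAM stage 4 replicate 2, also stood apart, most clearly for Aa_G462530 (WRKY40). It was above its partners too for Aa_G74800 (WRKY18), Aa_G196840 (WRKY46), Aa_G446020 (WRKY57) and Aa_G244340 (WRKY26). WRKY26 had 0.965, 2.86 and 1.21 CPM in SAM stage 4 replicates 1 to 3. Other genes did not share this, such as Aa_G599460 (WRKY4) with 43.4, 42 and 44.6 CPM. At stage 2, replicate 3 was above its partners in both tissues for some genes. Aa_G764860 (WRKY46) had 16, 6.08 and 34.7 CPM in AB replicates 1 to 3 and 5.44, 3.11 and 11.4 in SAM. Aa_G112890 (WRKY50) had 4.73, 4.68 and 9.63 CPM in AB and 4.26, 4.03 and 6.65 in SAM. WRKY40 went the other way and was lowest in replicate 3 of both tissues. Results on the low genes and on WRKY40 are given with such libraries, and many, but not all, of the calls lost without one of them are named.

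Of the 59 genes, 46 had a WRKY number in their description, with 34 distinct numbers, and 13 had none. By their number, 11 belonged to Arabidopsis group I, 2 to group IIa, 6 to IIb, 6 to IIc, 6 to IId, 5 to IIe and 6 to group III, and 17 stayed unassigned. A number names the closest described relative, so 10 numbers were carried by 2 or more genes, 22 genes in all, and reads shared between such copies could have been split by the counting. The genes lay on all 8 chromosomes of assembly version 5, from 4 genes on each of chromosomes 1 and 2 to 11 on chromosome 4. In 3 cases a pair lay within 10000 bases of each other, the closest being Aa_G244350 (WRKY7, partial) and Aa_G244340 (WRKY26), 982 bases apart on chromosome 8. Coding lengths ran from 279 to 2346 bases with a median of 939. One gene, Aa_G112890 (WRKY50), overlapped a model on the other strand, and strand use in the counting is not given in the sources used here, so its reads and those of its partner cannot be told apart. Aa_G30000 (WRKY44) overlapped a model on its own strand.

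A filter on low counts left 44 of the 59 genes for testing. The other 15 had between 0 and 78 reads over all 23 libraries, among them genes described as WRKY10, 34, 36, 41, 49 and 55, and 2 of them had no read at all. Genes numbered WRKY33, 53, 70 or 71 are not analysed here.

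Summed over all 59 genes, the level per gene length in TPM (transcript abundance per length, scaled by the authors to a common total in every library) was higher in AB than in SAM at stages 1 to 3 and lay close to it at stage 4. In AB it was 1074 ± 111.01 TPM at stage 1 (SD, n = 2), 1185 ± 62.2 at stage 2, 943 ± 60.9 at stage 3 and 715 ± 40.4 at stage 4 (SD, n = 3 each). In SAM it was 681 ± 5.63, 853 ± 66.1, 644 ± 12.8 and 656 ± 25.4 TPM at stages 1 to 4 (SD, n = 3 each). The AB and SAM libraries did not overlap at any stage, with the lowest AB library at 689 TPM against a highest SAM library of 678 TPM at stage 4. Without the 2 most abundant genes the sums were 727, 862, 724 and 569 TPM in AB and 532, 638, 513 and 541 TPM in SAM. At stage 4, 2 of the 3 AB libraries then fell within the range of the SAM libraries.

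**Figure D1:**
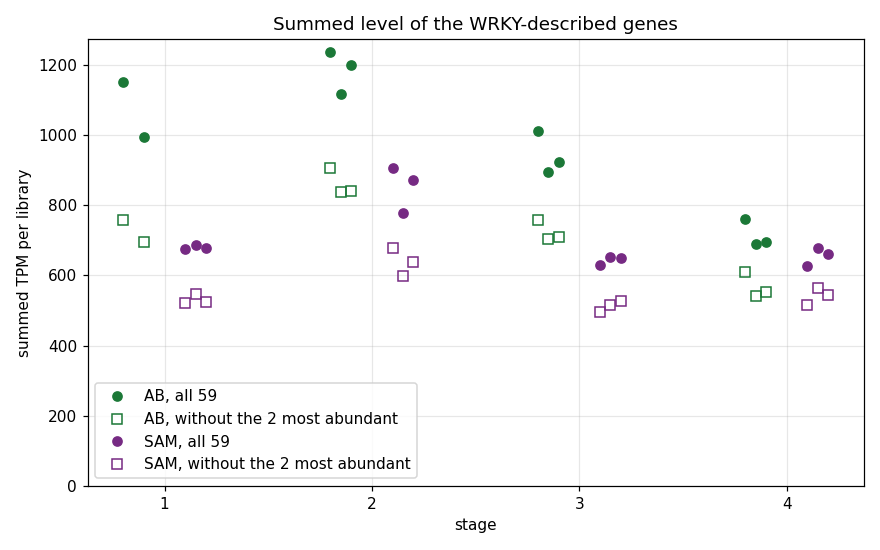
Summed TPM of the 59 WRKY-described genes in each library (filled points) and without the 2 most abundant genes (open squares), by stage, AB in green left of SAM in purple. The AB libraries lie above the SAM libraries at stages 1 to 3, and at stage 4 the tissues come within 689 and 678 TPM of each other.

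The most abundant gene was Aa_G351180 (WRKY21, chromosome 4, 34014184 to 34015501), which averaged 119.5 TPM over the 8 groups, 14.2% of the summed level. It was followed by Aa_G373110 (WRKY54) at 86.1 TPM, Aa_G59860 (WRKY11) at 59.1, Aa_G4340 (WRKY39) at 52.1, Aa_G472620 (no number) at 44.6 and Aa_G48460 (WRKY20) at 43.4 TPM. WRKY21, WRKY11 and WRKY39 belong to group IId, whose Arabidopsis members bind calmodulin. Over all 23 libraries WRKY39 stayed between 45.2 and 61.5 CPM (counts scaled to the TMM-adjusted total of each library, not to gene length), whereas WRKY54 ranged from 15.1 to 195 CPM.

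**Figure D2:**
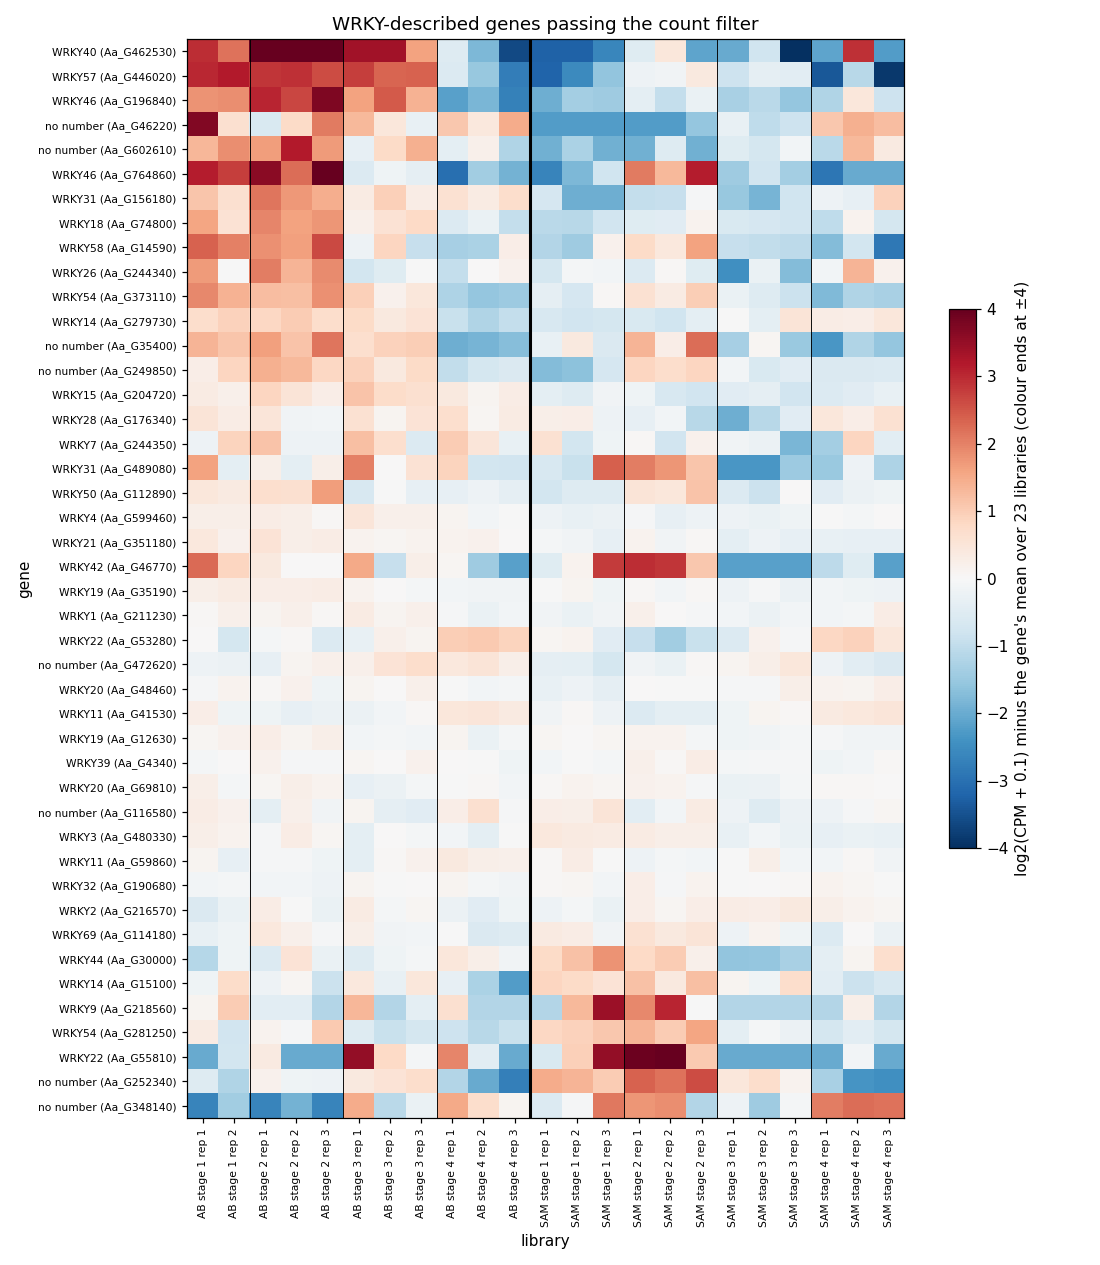
Level of the 44 tested genes in the 23 libraries, as log2(CPM + 0.1) minus the gene's mean over all libraries, with AB libraries left of the thick line and SAM libraries right of it, and genes ordered by their mean AB minus SAM difference over stages 1 to 3. By that order, genes at the top are higher in AB than in SAM over stages 1 to 3. Some of them, such as WRKY40 and WRKY57, are low in AB at stage 4. Others are not, such as Aa_G46220, with 0.878, 0.531 and 1.21 CPM in AB at stage 4 against 1.06, 0.534 and 0.282 at stage 3. WRKY40 is high in 1 of the 3 SAM stage 4 libraries.

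At stage 1, 24 of the 44 tested genes differed between AB and SAM, 20 of them higher and 4 lower in AB, at an adjusted p under 0.05 in edgeR's quasi-likelihood test. Among all 21414 genes tested, 32.8% were called, 18.2% higher and 14.6% lower. At stage 2, 23 were called, 16 higher and 7 lower in AB, where all genes gave 37.4%, 19.9% higher and 17.6% lower. At stage 3, 19 were called, all of them higher in AB, where all genes gave 44.2%, 22.1% in each direction. At stage 4, 6 were called, 3 higher and 3 lower in AB, beside 3.47% of all genes, 1.35% higher and 2.12% lower. The share of genes higher in AB was thus above that of all genes at each stage. The share lower in AB was below that of all genes at stages 1 and 3, near it at stage 2 and above it at stage 4. The stage 4 count was 3 without AB stage 4 replicate 1, 2 or 3 or without SAM stage 4 replicate 2.

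The median log2 difference of the 44 genes was 0.31 at stage 1, 0.21 at stage 2, 0.72 at stage 3 and 0.01 at stage 4, where the median of all genes tested lay between -0.02 and 0. Higher levels in AB at stages 1, 2 and 3 were called for 11 genes, and 27 genes were higher at 1 or more of these stages. Aa_G204720 (WRKY15) and Aa_G351180 (WRKY21) were higher in AB at all 4 stages. Lower levels in AB at both stages 1 and 2 were called for 3 genes, Aa_G252340, Aa_G281250 (WRKY54) and Aa_G348140. The shares of all genes that met these joint conditions were not counted. These numbers are therefore a list and not a comparison with other genes.

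**Figure D3:**
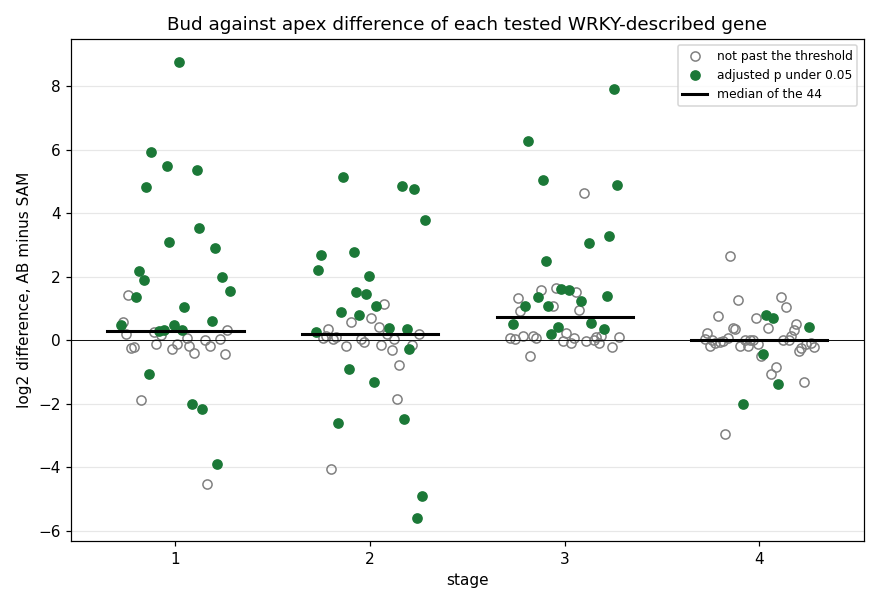
Log2 difference, AB minus SAM, of each of the 44 tested genes at stages 1 to 4, filled where the adjusted p was under 0.05, with bars at the median. The median is 0.31, 0.21, 0.72 and 0.01 at stages 1 to 4, and no filled point lies below 0 at stage 3.

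Both group IIa genes were higher in AB than in SAM at stages 1, 2 and 3 and were not called at stage 4. WRKY40 and WRKY18 of Arabidopsis act together as repressors in defence and abscisic acid signalling. Levels of single genes are given as CPM of the normalized library. Aa_G462530 (WRKY40, chromosome 7, 29392390 to 29393753) had 27.2 and 16 CPM at stage 1, 73.1, 86.9 and 60.5 at stage 2, 36.8, 36.4 and 10.7 at stage 3, and 2.38, 0.93 and 0.191 at stage 4 in AB. In SAM, WRKY40 had 0.276, 0.28 and 0.489 CPM at stage 1, 2.45, 4.8 and 0.725 at stage 2, 0.778, 1.93 and 0 at stage 3, and 0.734, 26.8 and 0.662 at stage 4. Every AB library of stages 1 to 3 lay above every SAM library of the same stage, AB averaged 1.17 CPM at stage 4, and SAM stage 4 replicate 2 stood far above its 2 partners. The log2 difference of Aa_G462530, AB minus SAM with its standard error, was 5.92 ± 1.5 (adjusted p = 0.00661) at stage 1, 4.77 ± 1.08 (adjusted p = 0.00257) at stage 2 and 4.88 ± 1.26 (adjusted p = 0.00559) at stage 3. From stage 3 to stage 4 WRKY40 fell in AB by a log2 change of -4.56 ± 1.21 (adjusted p = 0.00595).

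Aa_G74800 (WRKY18, chromosome 7, 9173964 to 9175349) had 31.4 and 15.7 CPM at stage 1, 40.6, 32.1 and 35.3 at stage 2, 12, 15.5 and 18.3 at stage 3, and 7.09, 8.7 and 5.29 at stage 4 in AB. In SAM, WRKY18 had 4.86, 4.7 and 6.08 CPM at stage 1, 7.46, 7.58 and 11.4 at stage 2, 6.73, 6.45 and 6.12 at stage 3, and 5.06, 11.4 and 6.4 at stage 4. The tissues did not overlap at stages 1 to 3 and overlapped at stage 4. WRKY18 was higher in AB by 2.17 ± 0.32 (adjusted p = 3.65e-05) on the log2 scale at stage 1, 2.03 ± 0.28 (adjusted p = 1.92e-05) at stage 2 and 1.24 ± 0.29 (adjusted p = 0.00242) at stage 3. It fell in AB by a log2 change of -1.24 ± 0.27 (adjusted p = 0.00352) from stage 2 to 3 and -1.12 ± 0.29 (adjusted p = 0.00419) from stage 3 to 4.

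Among group IIc, Aa_G446020 (WRKY57, chromosome 2, 24165271 to 24167100) had the smallest adjusted p of the 44 genes at stage 1. WRKY57 of Arabidopsis acts in drought tolerance and in jasmonate-induced leaf senescence. It had 43.8 and 49.1 CPM at stage 1, 39.6, 41.4 and 33.6 at stage 2, 37.3, 27.6 and 28 at stage 3, and 3.64, 1.79 and 0.701 at stage 4 in AB. In SAM, WRKY57 had 0.497, 0.839 and 1.74 CPM at stage 1, 4.64, 4.91 and 7.01 at stage 2, 3.0, 4.19 and 3.97 at stage 3, and 0.425, 2.42 and 0.276 at stage 4. The lowest AB library of stages 1 to 3 had 27.6 CPM and the highest SAM library of any stage had 7.01 CPM. The log2 difference was 5.49 ± 0.54 (adjusted p = 1.03e-06) at stage 1, 2.79 ± 0.42 (adjusted p = 7.28e-05) at stage 2 and 3.07 ± 0.45 (adjusted p = 5.06e-05) at stage 3, and WRKY57 fell in AB by -3.91 ± 0.48 (adjusted p = 7.81e-06) from stage 3 to 4. In SAM it rose from stage 1 to 2 by 2.41 ± 0.56 (adjusted p = 0.0157), with an adjusted p of 0.0876 without SAM stage 1 replicate 1 and 0.0754 without replicate 2.

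The other tested IIc genes were WRKY50 and WRKY28, the second of which is known in Arabidopsis as an activator of salicylic acid synthesis. Aa_G176340 (WRKY28) had 4.36, 3.07 and 4.24 CPM in AB against 0.667, 1.26 and 2.07 CPM in SAM at stage 3, and 3.94, 3.46 and 4.36 CPM in SAM at stage 4. SAM at stage 3 overlapped SAM at stage 2, with 2.24, 2.62 and 1.27 CPM, and that step did not pass the test (adjusted p = 0.154 in edgeR). It was higher in AB at stage 3 by 1.59 ± 0.33 (adjusted p = 0.000536) on the log2 scale and rose in SAM from stage 3 to 4 by 1.6 ± 0.32 (adjusted p = 0.00316). Aa_G112890 (WRKY50) had 1.85, 2.94 and 2.33 CPM in AB at stage 3 against 4.73, 4.68 and 9.63 CPM at stage 2, a change of -1.42 ± 0.28 (adjusted p = 0.00118). In SAM it had 2.0, 1.6 and 2.98 CPM at stage 3 against 4.26, 4.03 and 6.65 CPM at stage 2, a change of -1.2 ± 0.28 (adjusted p = 0.00416). It had risen in SAM from stage 1 to 2 by 1.37 ± 0.28 (adjusted p = 0.00457).

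**Figure D4:**
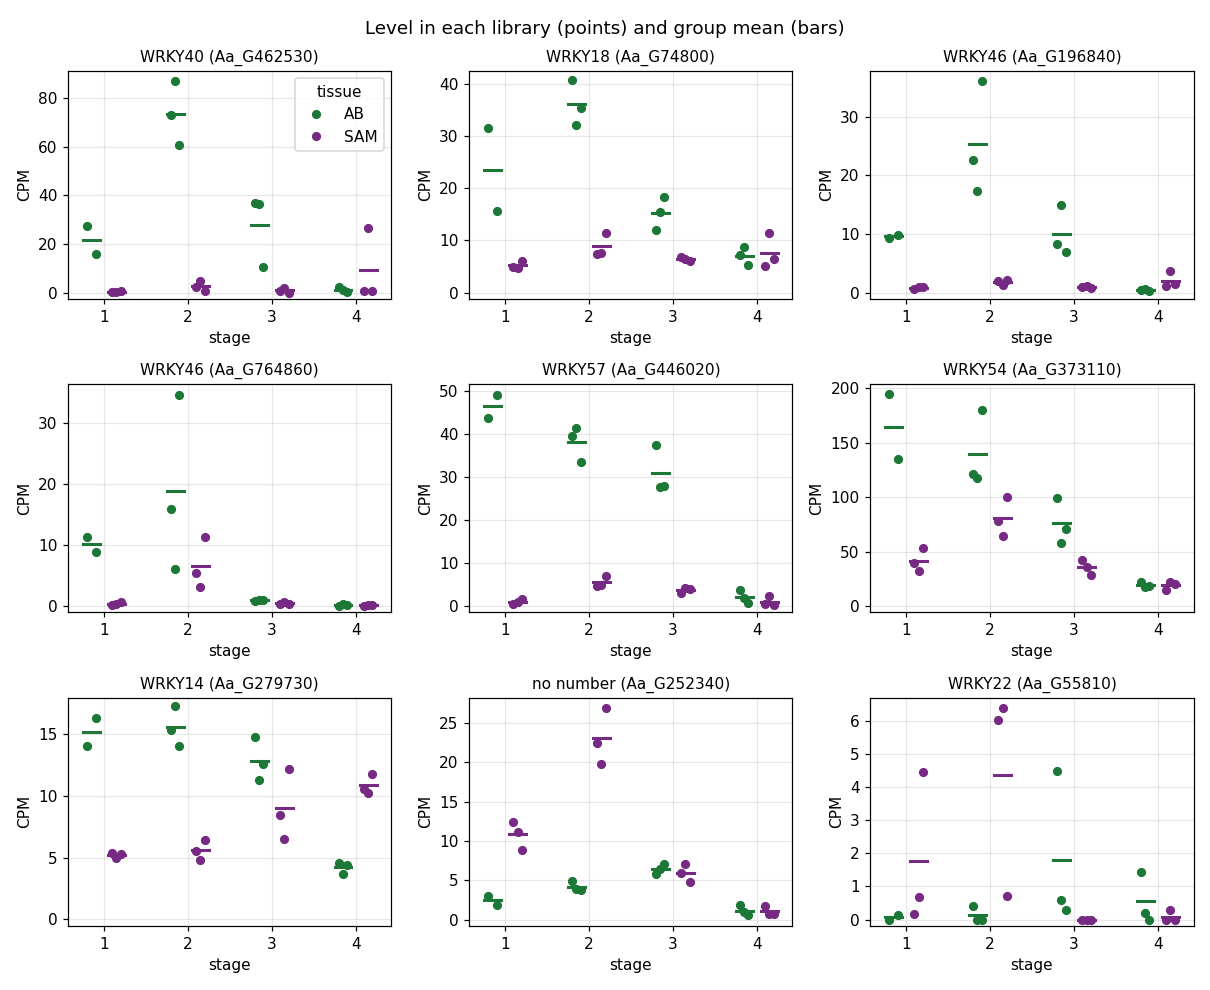
CPM of 9 genes in each library (points) and group means (bars) by stage, AB in green left of SAM in purple, on linear axes that start at 0. WRKY40, WRKY18, WRKY46 and WRKY57 are high in AB at stage 2 and low in AB at stage 4, where WRKY57 has at most 3.64 CPM.

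Group III holds the salicylic acid responsive genes WRKY46 and WRKY54, whose Arabidopsis counterparts act in basal defence, drought responses and leaf senescence. Of its 4 tested genes, 3 were higher and 1 was lower in AB at stage 1, beside 18.2% and 14.6% of all genes, and all 4 fell in AB from stage 2 to 3, beside 12% of all genes. Of 12 alternatives, that fall was lost in 4 for Aa_G373110 (WRKY54) and in 2 for Aa_G196840 (WRKY46). Both were lost without AB stage 2 replicate 3 and in a fit of the compared libraries alone. The first WRKY46 gene, Aa_G196840 (chromosome 4, 51635394 to 51636481), had 9.29 and 9.89 CPM at stage 1, 22.6, 17.3 and 36 at stage 2, 8.26, 14.9 and 6.99 at stage 3, and 0.502, 0.664 and 0.318 at stage 4 in AB. In SAM, Aa_G196840 had 0.608, 0.951 and 0.923 CPM at stage 1, 1.97, 1.31 and 2.18 at stage 2, 1.0, 1.2 and 0.827 at stage 3, and 1.08, 3.63 and 1.43 at stage 4. AB lay above SAM in every library of stages 1 to 3 and below it in every library of stage 4. Its log2 difference, AB minus SAM, was 3.52 ± 0.45 (adjusted p = 7.49e-06) at stage 1, 3.8 ± 0.39 (adjusted p = 4.41e-07) at stage 2, 3.3 ± 0.42 (adjusted p = 6.93e-06) at stage 3 and -2.0 ± 0.52 (adjusted p = 0.0381) at stage 4. The stage 4 call was lost without the filter on low counts, at an adjusted p of 0.0522, and without any single library of stage 4 other than SAM replicate 1, at 0.0501 to 0.205.

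The second WRKY46 gene, Aa_G764860 (chromosome 5, 27265550 to 27266625), had 11.4 and 8.83 CPM at stage 1, 16, 6.08 and 34.7 at stage 2, 0.793, 1.07 and 0.918 at stage 3, and 0.0627, 0.398 and 0.255 at stage 4 in AB. In SAM, Aa_G764860 had 0.111, 0.28 and 0.652 CPM at stage 1, 5.44, 3.11 and 11.4 at stage 2, 0.389, 0.665 and 0.414 at stage 3, and 0.0772, 0.22 and 0.221 at stage 4. It had 1.07 CPM or less in all libraries of both tissues in the cold. Both tissues fell from stage 2 to 3, by -4.34 ± 0.61 (adjusted p = 0.000131) in AB and -3.74 ± 0.68 (adjusted p = 0.000768) in SAM. In SAM it had risen from stage 1 to 2 by 4.21 ± 0.69 (adjusted p = 0.0015), and AB was higher than SAM at stage 1 by 4.83 ± 0.72 (adjusted p = 5.26e-05). The stage 2 difference of 1.52 ± 0.5 (adjusted p = 0.0235) was lost without AB stage 2 replicate 3, where its adjusted p was 0.233, and without SAM stage 2 replicate 1 or 2, at 0.0779 and 0.0949.

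The pair of WRKY54 genes had called differences between the tissues in opposite directions at stages 1 and 2 only. Aa_G373110 (chromosome 5, 22731190 to 22732608) had 194.6 and 134.6 CPM at stage 1, 121.2, 117.97 and 180.03 at stage 2, 99.1, 58.1 and 70.5 at stage 3, and 21.6, 17.5 and 18.7 at stage 4 in AB. In SAM, Aa_G373110 had 39.7, 32.3 and 53.2 CPM at stage 1, 77.8, 63.9 and 100.4 at stage 2, 42.6, 35.8 and 28.4 at stage 3, and 15.1, 22 and 20.7 at stage 4. AB lay above SAM in every library of stages 1 to 3, and the tissues overlapped at stage 4. AB was higher by 1.98 ± 0.28 (adjusted p = 3.66e-05) at stage 1, 0.79 ± 0.25 (adjusted p = 0.0184) at stage 2 and 1.09 ± 0.26 (adjusted p = 0.00284) at stage 3. The stage 2 call was lost without AB stage 2 replicate 3, at an adjusted p of 0.104, and without SAM stage 2 replicate 1 or 2, at 0.0531 and 0.0823. The fall in AB from stage 3 to 4 was -1.98 ± 0.27 (adjusted p = 2.17e-05).

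The second WRKY54 gene, Aa_G281250 (chromosome 4, 47602789 to 47604353), had 11.3 and 5.3 CPM in AB against 16.1, 17.1 and 19 CPM in SAM at stage 1. At stage 2 it had 9.87, 8.74 and 18.6 CPM in AB against 23.5, 18.4 and 26.8 CPM in SAM. One AB library of stage 2 overlapped the SAM range. The difference was -1.07 ± 0.28 (adjusted p = 0.00645) at stage 1, lost without AB stage 1 replicate 2 at an adjusted p of 0.154, and -0.89 ± 0.24 (adjusted p = 0.00634) at stage 2, lost in a fit of the compared libraries alone at 0.073. From stage 2 to 3 it fell by -1.17 ± 0.26 (adjusted p = 0.00336) in AB and -1.58 ± 0.25 (adjusted p = 0.000155) in SAM.

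Group I genes moved by small steps or were low. Of the 10 tested genes, 4 were higher and 1 was lower in AB at stage 1, 2 and 1 at stage 2, 3 and 0 at stage 3, and 0 and 1 at stage 4, beside 18.2% and 14.6%, 19.9% and 17.6%, 22.1% and 22.1%, and 1.35% and 2.12% of all genes. At stage 2 the share higher in AB was thus that of all genes. Aa_G599460 (WRKY4), a counterpart of an Arabidopsis gene that acts in resistance to necrotrophic fungi, had 61.8, 51.4 and 51.3 CPM in AB against 38.4, 36.5 and 39 CPM in SAM at stage 3. The AB and SAM libraries did not overlap there, and the log2 differences were 0.48 ± 0.09 (adjusted p = 0.000425), 0.39 ± 0.09 (adjusted p = 0.000917) and 0.53 ± 0.09 (adjusted p = 4.66e-05) at stages 1, 2 and 3. Aa_G48460 (WRKY20) had 66.8 and 75.1 CPM in AB against 55.4, 60.05 and 53.2 CPM in SAM at stage 1, a difference of 0.34 ± 0.1 (adjusted p = 0.0107) that was lost without AB stage 1 replicate 2, at an adjusted p of 0.171. Aa_G216570 (WRKY2), whose Arabidopsis counterpart acts in pollen and in the first division of the zygote, had 28.2, 24.2 and 29.8 CPM in AB against 39.3, 36.6 and 35.2 CPM in SAM at stage 4. The WRKY2 difference of -0.44 ± 0.12 (adjusted p = 0.0495) was lost when any single library of stage 4 was left out, with an adjusted p from 0.056 without AB replicate 3 to 0.232 without AB replicate 2.

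Aa_G30000 (WRKY44, chromosome 4, 43065794 to 43067287) is the counterpart of the Arabidopsis trichome and seed coat gene TTG2. It had 0.563 and 1.2 CPM at stage 1, 0.891, 2.03 and 1.12 at stage 2, 0.925, 1.2 and 1.27 at stage 3, and 1.88, 1.59 and 1.21 at stage 4 in AB. In SAM, WRKY44 had 2.38, 3.19 and 5.0 CPM at stage 1, 2.45, 2.83 and 1.57 at stage 2, 0.389, 0.399 and 0.496 at stage 3, and 1.0, 1.48 and 2.21 at stage 4. The apex level was high before the cold, low at stage 3 and intermediate at stage 4, while AB stayed between 0.563 and 2.03 CPM. WRKY44 was lower in AB at stage 1 by -1.99 ± 0.44 (adjusted p = 0.00151) and higher in AB at stage 3 by 1.4 ± 0.46 (adjusted p = 0.0166), and it fell in SAM from stage 2 to 3 by -2.42 ± 0.43 (adjusted p = 0.000368). The stage 3 difference was lost without SAM stage 3 replicate 1, at an adjusted p of 0.0575. In SAM it rose from stage 3 to 4 by 1.85 ± 0.44 (adjusted p = 0.00948), and that rise was lost without SAM stage 3 replicate 1, at 0.0516, or SAM stage 4 replicate 3, at 0.0585.

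Aa_G244340 (WRKY26), a counterpart of an Arabidopsis gene of the heat response, had 0.595, 0.734 and 1.06 CPM in AB at stage 3 against 4.66, 2.87 and 4.19 CPM at stage 2, a change of -2.29 ± 0.53 (adjusted p = 0.00395). At stage 2 it was higher in AB than in SAM, which had 0.693, 1.09 and 0.725 CPM, by 2.21 ± 0.52 (adjusted p = 0.00186). Aa_G14590 (WRKY58) had 0.529, 1.2 and 0.282 CPM in AB at stage 3 against 2.47, 2.17 and 4.4 CPM at stage 2, a change of -2.15 ± 0.59 (adjusted p = 0.012). The WRKY58 change was lost without AB stage 2 replicate 3, at an adjusted p of 0.0692, and without AB stage 3 replicate 1 or 3, at 0.0529 and 0.0548. In the cold the highest AB library had 1.21 CPM of WRKY26 and 1.20 CPM of WRKY58.

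Group IId held 3 of the 6 most abundant genes, but its member Aa_G244350 (WRKY7) had at most 0.727 CPM in any library. Aa_G351180 (WRKY21) had 158.9 and 135.4 CPM at stage 1, 172.9, 140.5 and 146.9 at stage 2, 130.1, 126.2 and 131.7 at stage 3, and 129.8, 133.7 and 120.6 at stage 4 in AB. In SAM, WRKY21 had 112.1, 107.4 and 95.4 CPM at stage 1, 131.4, 106.96 and 123.3 at stage 2, 90.7, 104.1 and 93.8 at stage 3, and 97.7, 93.9 and 95.6 at stage 4. AB was higher by 0.49 ± 0.1 (adjusted p = 0.000582) at stage 1, 0.35 ± 0.09 (adjusted p = 0.00364) at stage 2, 0.43 ± 0.09 (adjusted p = 0.000624) at stage 3 and 0.42 ± 0.09 (adjusted p = 0.00834) at stage 4. The stage 4 difference had an adjusted p of 0.0541 without AB stage 4 replicate 2. Aa_G204720 (WRKY15, chromosome 6, 24530775 to 24531847), which acts in leaf cell expansion and stress responses in Arabidopsis, had 39.2 and 36.1 CPM at stage 1, 56.8, 44.7 and 37.4 at stage 2, 68.9, 52.3 and 48.8 at stage 3, and 40.6, 33.8 and 38.1 at stage 4 in AB. In SAM, WRKY15 had 23.7, 21.5 and 28.1 CPM at stage 1, 27.4, 19.8 and 18.3 at stage 2, 22.8, 24.4 and 18.3 at stage 3, and 21.2, 22.6 and 25.1 at stage 4. No AB library overlapped the SAM libraries of its stage, and the difference was 0.62 ± 0.19 (adjusted p = 0.0154), 1.08 ± 0.17 (adjusted p = 5.86e-05), 1.37 ± 0.17 (adjusted p = 4.92e-06) and 0.71 ± 0.17 (adjusted p = 0.0224) at stages 1 to 4. The stage 1 call was lost without any 1 of 3 libraries, at 0.0923 without AB stage 1 replicate 1, 0.0597 without AB replicate 2 and 0.057 without SAM replicate 2. At stage 4 it was lost without AB replicate 1 or 3, at 0.102 and 0.061, and without SAM replicate 1 or 2, at 0.0929 and 0.0845.

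Of the pair of WRKY11 genes, whose Arabidopsis counterpart restrains basal defence, Aa_G41530 rose late in the cold in both tissues. Aa_G41530 had 42.7, 44 and 40.4 CPM in AB at stage 4 against 26.2, 29.2 and 32.3 CPM at stage 3, and 39.9, 41.8 and 43.4 CPM in SAM at stage 4 against 27.8, 33.6 and 32.4 CPM at stage 3. The rise was 0.54 ± 0.1 (adjusted p = 0.000257) in AB and 0.42 ± 0.1 (adjusted p = 0.0128) in SAM, and the second was lost without SAM stage 3 replicate 1, at an adjusted p of 0.0902, and without SAM stage 4 replicate 3, at 0.0564. Aa_G59860 rose in AB by 0.32 ± 0.13 (adjusted p = 0.0452), a call lost with RLE size factors, at 0.0521, and without any single library of the comparison other than AB stage 3 replicate 3, at 0.054 to 0.318. Aa_G59860 had 51.1, 57 and 50.4 CPM in SAM at stage 4 against 54.9, 64.5 and 51.4 CPM at stage 3, a difference of -0.11 ± 0.13 (adjusted p = 0.658) that did not pass the test. Aa_G4340 (WRKY39) had 48.2 and 51.1 CPM in AB against 46.8, 50.4 and 47.2 CPM in SAM at stage 1, and its differences of 0.05, -0.15 and 0.15 at stages 1 to 3 did not pass the test.

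Group IIe held genes that differed among themselves. Aa_G279730 (WRKY14, chromosome 1, 27909451 to 27911838) had 14.1 and 16.3 CPM at stage 1, 15.4, 17.3 and 14 at stage 2, 14.7, 11.3 and 12.6 at stage 3, and 4.58, 3.65 and 4.4 at stage 4 in AB. In SAM, WRKY14 had 5.42, 4.98 and 5.27 CPM at stage 1, 5.54, 4.85 and 6.47 at stage 2, 8.45, 6.52 and 12.2 at stage 3, and 10.6, 10.2 and 11.7 at stage 4. AB lay above SAM in every library of stages 1 and 2, overlapped it at stage 3 and lay below it in every library of stage 4. The log2 difference was 1.54 ± 0.19 (adjusted p = 2.10e-06) at stage 1, 1.47 ± 0.17 (adjusted p = 1.10e-06) at stage 2 and -1.36 ± 0.18 (adjusted p = 0.000129) at stage 4. At stage 3 AB was higher by 0.52 ± 0.17 (adjusted p = 0.0165), a call lost in 4 of 13 alternatives. A rise in SAM from stage 2 to 3 was also called and was lost in 2 of 12 alternatives. WRKY14 fell in AB from stage 3 to 4 by -1.61 ± 0.18 (adjusted p = 5.36e-07). The other WRKY14 gene, Aa_G15100, had 1.37, 1.68 and 0.838 CPM in AB against 3.68, 2.13 and 3.81 CPM in SAM at stage 2. Its difference of -1.3 ± 0.39 (adjusted p = 0.0117) went the opposite way and was lost without AB stage 2 replicate 3, at an adjusted p of 0.0638.

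WRKY22 acts downstream of the MAP kinase cascade that follows flagellin perception in Arabidopsis. Aa_G53280 (WRKY22, chromosome 6, 591984 to 593277) had 6.9 and 4.17 CPM at stage 1, 6.58, 7.06 and 4.68 at stage 2, 5.55, 8.01 and 7.48 at stage 3, and 13.7, 14.4 and 12.9 at stage 4 in AB. In SAM, Aa_G53280 had 7.24, 7.67 and 5.0 CPM at stage 1, 3.62, 2.56 and 3.69 at stage 2, 4.72, 7.85 and 6.62 at stage 3, and 12.4, 13.2 and 9.38 at stage 4. Stage 4 was the highest stage in both tissues, and its libraries lay above all others of that tissue. From stage 3 to 4 it rose by 0.96 ± 0.22 (adjusted p = 0.0012) in AB and 0.87 ± 0.22 (adjusted p = 0.0151) in SAM, and the SAM rise was lost without SAM stage 3 replicate 1, at an adjusted p of 0.103, and without SAM stage 4 replicate 2, at 0.0621. From stage 2 to 3 it rose in SAM by 0.95 ± 0.24 (adjusted p = 0.0063).

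The other WRKY22 gene, Aa_G55810, is one of the library-dependent set. It had 4.49, 0.601 and 0.282 CPM in AB against 0 CPM in all 3 SAM libraries at stage 3, where the mean level in AB was at least 26.9-fold higher, taking 3 reads over the SAM group as the floor. Its adjusted p of 0.0409 became 0.214 without AB stage 3 replicate 1 and 0.0634 with the replicate number as a block. At stage 2 it had 0.411, 0 and 0 CPM in AB against 6.02, 6.38 and 0.725 CPM in SAM, and the adjusted p of 0.0351 became 0.0697 without SAM stage 2 replicate 1 and 0.0772 without replicate 2. That call was lost too without AB stage 2 replicate 1, 2 or 3, at 0.0518, 0.107 and 0.106. Against stage 2, SAM at stage 3 was at least 65.8-fold lower, with an adjusted p of 0.0222 that became 0.0626 without SAM stage 3 replicate 1.

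Group IIb held 3 more genes of that set. Aa_G46770 (WRKY42-like), a counterpart of an Arabidopsis gene of phosphate balance, had 0, 0 and 0 CPM in the SAM libraries at stage 3 against 3.36, 3.11 and 0.846 CPM at stage 2, at least 36.6-fold lower with an adjusted p of 0.00302. This call held with each single library left out. Aa_G489080 (WRKY31) had 0, 0 and 0.0827 CPM in SAM at stage 3 against 1.97, 1.58 and 0.967 CPM at stage 2, with an adjusted p of 0.00494 that stayed at 0.0288 or less under the 12 alternatives run, each single library left out among them. Aa_G218560 (WRKY9) had no read in SAM at stage 3 against 0.746, 1.74 and 0.121 CPM at stage 2, at least 13.1-fold lower, and its adjusted p of 0.0362 became 0.116 without SAM stage 2 replicate 2 and 0.0563 with the replicate block. At stage 3, AB had 1.19, 0.133 and 0.424 CPM of Aa_G46770, at least 8.75-fold above SAM, with an adjusted p of 0.0265 that became 0.12 without AB stage 3 replicate 1. At stage 2 Aa_G46770 was lower in AB than in SAM, with an adjusted p of 0.0402 in edgeR. That call was lost without SAM stage 2 replicate 1 or 2, at 0.101 and 0.0957, and without any single AB stage 2 library. The other WRKY31 gene, Aa_G156180, behaved differently, with 2.54, 1.89 and 1.54 CPM in AB against 0.213, 0.218 and 0.483 CPM in SAM at stage 2 and a difference of 2.69 ± 0.5 (adjusted p = 0.000228). Its levels were higher in AB also at stages 1 and 3, by 2.92 ± 0.63 (adjusted p = 0.00117) and 2.48 ± 0.62 (adjusted p = 0.00288).

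Among the genes without an assigned group, Aa_G252340 (chromosome 4, 50685739 to 50687369) was lower in AB than in SAM at stages 1 and 2. It had 3.03 and 1.84 CPM at stage 1, 4.93, 3.84 and 3.77 at stage 2, 5.75, 6.41 and 7.06 at stage 3, and 1.88, 0.996 and 0.573 at stage 4 in AB. In SAM, Aa_G252340 had 12.4, 11.2 and 8.85 CPM at stage 1, 22.5, 19.8 and 26.9 at stage 2, 5.95, 7.12 and 4.8 at stage 3, and 1.7, 0.769 and 0.717 at stage 4. SAM lay above AB in every library of stages 1 and 2, and the tissues overlapped in the cold, where both fell to the lowest levels at stage 4. The difference was -2.15 ± 0.33 (adjusted p = 4.46e-05) at stage 1 and -2.46 ± 0.27 (adjusted p = 6.53e-07) at stage 2. The change from stage 2 to 3, which did not pass the test in AB, was in SAM -1.95 ± 0.26 (adjusted p = 2.73e-05), and from stage 3 to 4 the changes were -2.46 ± 0.32 (adjusted p = 4.75e-06) in AB and -2.43 ± 0.31 (adjusted p = 5.25e-05) in SAM.

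Aa_G472620 (chromosome 7, 755192 to 757386) had 50.2, 53.1 and 43.6 CPM in AB against 32, 27.7 and 25 CPM in SAM at stage 4, without overlap and with a difference of 0.79 ± 0.15 (adjusted p = 0.0032). In SAM it fell from stage 3 to 4 by -0.66 ± 0.15 (adjusted p = 0.00654). Aa_G249850 had 10.9 and 16.5 CPM in AB against 2.6, 2.8 and 5.59 CPM in SAM at stage 1, a difference of 1.9 ± 0.26 (adjusted p = 1.15e-05). It rose in SAM from stage 1 to 2 by 2.1 ± 0.24 (adjusted p = 3.88e-05), to 16.4, 14.6 and 16.3 CPM at stage 2. It fell in AB from stage 3 to 4 by -1.47 ± 0.23 (adjusted p = 4.33e-05), to 4.52, 5.51 and 5.92 CPM at stage 4.

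Aa_G46220 had 5.98 and 0.636 CPM in AB against no read in the 3 SAM libraries at stage 1, at least 59.989-fold higher with an adjusted p of 6.10e-05, and the 2 AB libraries differed widely. That call was lost in a fit of the compared libraries alone, at 0.14. Aa_G602610 had 1.1, 3.28 and 1.12 CPM in AB against 0, 0.164 and 0 CPM in SAM at stage 2, with an adjusted p of 0.000276. Aa_G35400 fell in AB by -2.84 ± 0.53 (adjusted p = 0.00024) from stage 3 to 4, with 0.69, 0.73 and 0.828 CPM at stage 4 against 4.69, 5.67 and 5.93 CPM at stage 3. Aa_G348140 rose in AB from stage 2 to 3, with 1.65, 0.20 and 0.424 CPM at stage 3 against 0, 0.0699 and 0 CPM at stage 2, and its adjusted p of 0.0352 became 0.202 without AB stage 3 replicate 1 and 0.0526 with the replicate block. In AB against SAM at stage 1 its adjusted p of 0.0416 became 0.223 without SAM stage 1 replicate 3, 0.219 without AB stage 1 replicate 1, 0.096 without AB replicate 2 and 0.0588 with the replicate block.

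Between stages, more of the 44 genes fell than rose when plants entered the cold. From stage 2 to 3, 2 genes rose and 13 fell in AB, beside 22.2% of all genes called, 10.2% higher and 12% lower. In SAM over the same step 3 rose and 18 fell, beside 24.3% of all genes, 11.9% higher and 12.3% lower. A fall in both tissues was called for 7 genes, which were Aa_G112890 (WRKY50), Aa_G14590 (WRKY58), Aa_G281250 and Aa_G373110 (WRKY54), Aa_G351180 (WRKY21), Aa_G69810 (WRKY20) and Aa_G764860 (WRKY46). The share of all genes that fell in both tissues was not counted. The falls of Aa_G112890, Aa_G281250 and Aa_G764860 were called in both tissues under every alternative run. The AB fall of Aa_G351180 (adjusted p = 0.0495 in edgeR) was lost in 8 of 12 alternatives. The median log2 change was -0.23 in AB and -0.56 in SAM. The AB count of 15 was 7 without AB stage 2 replicate 3 and 9 without AB stage 3 replicate 3.

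During further cold more genes fell than rose in AB. From stage 3 to 4, 3 genes rose and 14 fell in AB, beside 47.3% of all genes, 23% higher and 24.2% lower. The share called in AB, 38.6% of the 44 genes, lay below that of all genes, as did the share that rose. In SAM 7 rose and 3 fell, beside 9.18% of all genes, 5.14% higher and 4.04% lower. The median log2 change was -0.28 in AB and 0.16 in SAM. The direction with more SAM calls turned without SAM stage 3 replicate 1, where the count was 3, with 1 that rose and 2 that fell. It was 5 without SAM stage 4 replicate 3, with 3 that rose and 2 that fell.

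Before the cold, from stage 1 to 2, no WRKY gene was called in AB by edgeR, beside 1.16% of all genes (0.743% higher and 0.42% lower), with 8 genes at an unadjusted p under 0.05. DESeq2 and limma on log2(TPM + 1) called 1 each, and 1 was called without AB stage 1 replicate 2. In SAM 7 rose and 2 fell, beside 7.58% of all genes, 4.52% higher and 3.06% lower. The SAM count of 9 was 4 without SAM stage 1 replicate 1 and 5 without replicate 2.

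**Figure D5:**
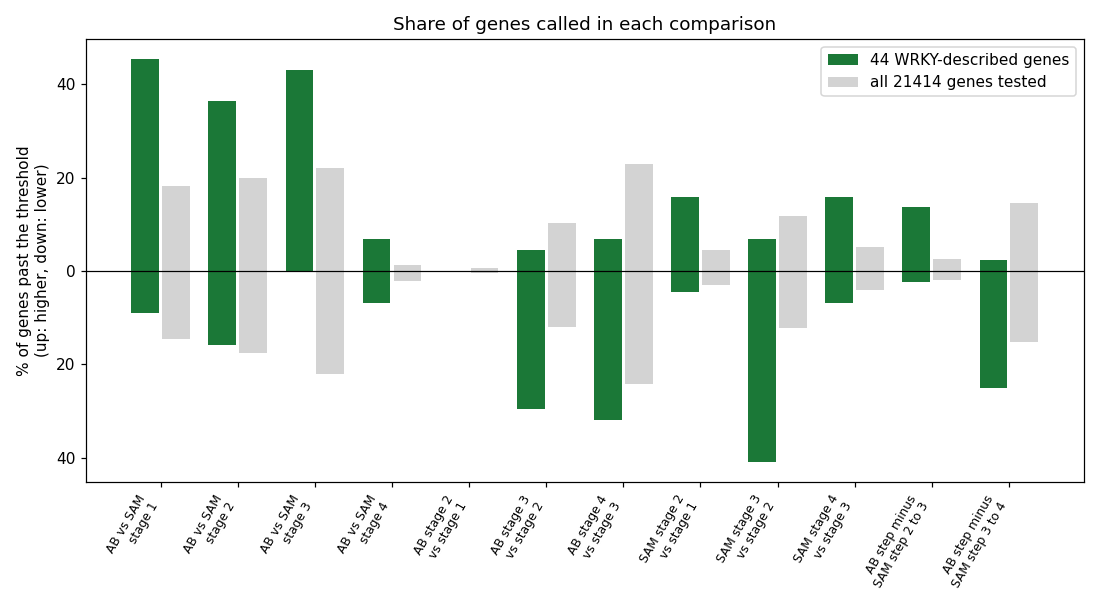
Percent of genes past the threshold in each of the 12 comparisons, higher above 0 and lower below 0, for the 44 tested WRKY-described genes (green) left of all 21414 tested genes (grey). The WRKY bars exceed the grey ones upward in AB against SAM at stages 1 to 4 and downward from stage 2 to 3 in both tissues.

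The difference between the tissues in the response was tested directly, as the AB step minus the SAM step. On entering the cold, from stage 2 to 3, it was called for 7 genes, 6 with a higher and 1 with a lower value in AB, beside 4.66% of all genes, 2.66% higher and 2% lower. Aa_G252340 had the smallest adjusted p, with a difference of 2.56 ± 0.38 (adjusted p = 0.000732). Of the other 6, 4 belong to the library-dependent set. When single libraries were left out the count ran from 2 to 7, and it was 4 without AB stage 2 replicate 1 or SAM stage 2 replicate 2, 3 without AB stage 2 replicate 2 or 3, and 2 without AB stage 3 replicate 1, SAM stage 2 replicate 1 or any SAM stage 3 library.

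During further cold, from stage 3 to 4, the step differed between the tissues for 12 genes, 1 higher and 11 lower in AB, beside 29.8% of all genes, 14.7% higher and 15.1% lower. The median of the 44 genes was -0.52, where that of all genes was 0.0012. Aa_G279730 (WRKY14) had -1.88 ± 0.24 (adjusted p = 1.63e-05), Aa_G196840 (WRKY46) -5.3 ± 0.66 (adjusted p = 1.91e-05), Aa_G249850 -1.27 ± 0.33 (adjusted p = 0.00724) and Aa_G176340 (WRKY28) -1.66 ± 0.44 (adjusted p = 0.00722). Aa_G462530 (WRKY40) had -7.83 ± 1.78 (adjusted p = 0.00446), which became an adjusted p of 0.0608 without SAM stage 4 replicate 2, the library with 26.8 CPM. Without that library 7 of the 44 genes were called.

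Genes that work with WRKY proteins were counted by their descriptions in the same fit. VQ motif proteins bind WRKY proteins and modify their action. Of 16 tested VQ genes, 9, 9, 10 and 3 were higher in AB at stages 1 to 4 and none was lower, beside 18.2%, 19.9%, 22.1% and 1.35% of all genes higher and 14.6%, 17.6%, 22.1% and 2.12% lower. From stage 3 to 4, 8 fell and none rose in AB, where SAM had 2 that rose and 2 that fell, beside 24.2% of all genes that fell and 23% that rose in AB and 4.04% and 5.14% in SAM. Their medians were 0.71, 0.66, 1.00 and 0.08 for AB minus SAM at stages 1 to 4, and -0.90 for AB from stage 3 to 4. Aa_G221030 was higher in AB by 2.43 ± 0.38 (adjusted p = 4.81e-05) at stage 1 and 2.33 ± 0.35 (adjusted p = 2.67e-05) at stage 3, and fell in AB by -3.31 ± 0.38 (adjusted p = 1.02e-06) from stage 3 to 4. Aa_G698510 was higher in AB by 3.06 ± 0.47 (adjusted p = 3.53e-05) at stage 1 and 3.66 ± 0.56 (adjusted p = 2.71e-05) at stage 3. Aa_G231670 was higher in AB at stage 4 too, by 2.24 ± 0.56 (adjusted p = 0.027).

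MAP kinases phosphorylate WRKY proteins during immune responses and are themselves activated by MAP kinase kinases. The genes were taken by a description that names a MAP kinase, which also took in a MAP kinase phosphatase (Aa_G99070) and a MAP kinase-binding protein (Aa_G101420). The shares of all genes given beside the VQ counts apply here too. Of 37 tested genes, 13 were higher and 1 lower in AB at stage 1, 13 and 1 at stage 2, 12 and 3 at stage 3 and 0 and 1 at stage 4. From stage 3 to 4, 3 rose and 13 fell in AB, against 1 and 1 in SAM. Their median difference, AB minus SAM, was 0.18 at stages 1 and 2, 0.16 at stage 3 and 0.03 at stage 4.

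Salicylic acid regulators stand both above and below WRKY genes in Arabidopsis. Of 13 tested genes, 7, 8 and 5 were higher in AB at stages 1 to 3 and none was lower, and at stage 4 none was higher and 1 was lower, with the same shares of all genes beside them. From stage 2 to 3, 9 fell in AB and 7 fell in SAM, beside 12% and 12.3% of all genes, and none rose. The list summed to 649, 538 and 989 CPM in AB stage 2 replicates 1 to 3, and its calls without replicate 3 were not computed. From stage 3 to 4, 6 fell in AB, and none was called in SAM. The median difference, AB minus SAM, was 1.07, 0.79, 0.76 and -0.07 at stages 1 to 4. Aa_G311930, described as phytoalexin deficient 4, a lipase-like partner of the immune regulator EDS1, was higher in AB by 1.64 ± 0.29 (adjusted p = 0.00037) at stage 1 and fell in AB by -1.97 ± 0.27 (adjusted p = 0.000129) from stage 2 to 3. Aa_G561400, described as enhanced disease susceptibility 1, was higher in AB by 1.74 ± 0.15 (adjusted p = 5.89e-08) at stage 1 and lower by -0.61 ± 0.14 (adjusted p = 0.0167) at stage 4. Pathogenesis-related and thaumatin-like genes, which encode defence proteins, were called in both directions. Of 19 tested, 6 were higher and 2 lower in AB at stage 1, 7 and 3 at stage 2, 3 and 3 at stage 3 and 1 and 0 at stage 4, again beside those shares of all genes.

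Markers of other cells and of handling were measured in the same libraries. The light-harvesting genes of leaf mesophyll summed to 4402 to 5736 CPM in AB against 6905 to 8981 CPM in SAM at stage 1. Of 16 tested genes, 2 were higher and 8 lower in AB there, beside 18.2% and 14.6% of all genes. At stages 2, 3 and 4 the sums were 4053 to 5403, 4291 to 6289 and 3850 to 4449 CPM in AB, against 5006 to 6853, 4374 to 6895 and 4517 to 6271 CPM in SAM. The 4 genes described as the phloem sucrose transporter summed to 49.02 to 50.97, 48.2 to 55.2, 40.5 to 51.7 and 29.6 to 32.6 CPM in AB at stages 1 to 4. In SAM they summed to 33.5 to 36.8, 35.02 to 36.8, 37.9 to 44.8 and 29.7 to 33.6 CPM. The tissues were thus apart for the phloem genes at stages 1 and 2 and close at stage 4.

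Wounding markers were taken by description alone, and whether each of them responds to wounding was not tested. These jasmonate ZIM and TIFY genes and the zinc finger gene Aa_G23670 (zat10-like) summed to 333 to 351, 404 to 493, 328 to 474 and 258 to 310 CPM in AB at stages 1 to 4. Their sums in SAM were 336 to 464, 404 to 524, 227 to 321 and 297 to 331 CPM. Of the 10 tested, 1 was higher and 2 lower in AB at stages 1 and 2, 5 and 1 at stage 3 and 1 and 0 at stage 4, and 1 rose and 5 fell in AB from stage 3 to 4. All genes gave 18.2% higher and 14.6% lower at stage 1, 19.9% and 17.6% at stage 2, 22.1% and 22.1% at stage 3 and 1.35% and 2.12% at stage 4. In AB from stage 3 to 4, 23% of all genes rose and 24.2% fell. At stages 1, 2 and 4 the wounding sums overlapped between the tissues, while at stage 3 every AB library lay above every SAM library. Up to 4 of the 18 mesophyll genes, 1 of the 4 phloem genes and 3 of the 14 wounding genes had no read in a library. The part of these cell types or of handling in the WRKY differences was not tested.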

How the data were processed

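The deposited table of the whole series holds, for 34220 genes and 23 libraries, read counts headed by the authors as total mapped reads, and TPM values that the authors made from them. Aligner, counter, strand use and build are not given in the sources used here. FastQC is named in the submitters' processing notes, and reads were single-end of 150 bases per the labels. Gene positions came from the deposited annotation of assembly version 5, which per the file headers was moved from an earlier version, and its gene lengths are coding lengths. The other 46 per-library columns were not used. Depth was 12247645 to 26218502 counts per library, so genes under about 1 CPM rest on few reads. The SDs and standard errors include variation between libraries, while the floors cover counting error only.

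Counts were fitted with edgeR 4.0.16 (R 4.3.3): filterByExpr by group with a minimum count of 10 and a minimum total of 15, TMM scaling, 1 coefficient for each of the 8 groups, a robust quasi-likelihood F test and Benjamini-Hochberg adjustment over 21414 genes, with a threshold of 0.05. The 12 comparisons share libraries: AB and SAM at each stage, consecutive stages in each tissue, and AB minus SAM differences of the steps. The standard error is the log2 change divided by the square root of F. CPM used TMM-scaled library sizes. Where a group had no read, a bound on the fold was computed with 3 reads over the group as the floor. Alternatives were DESeq2 1.42.0, limma 3.58.1 on log2(TPM + 1), RLE factors, no filter, the compared libraries alone, the replicate number as a block and each library left out. The code was tested on simulated data. No 2 libraries of a group agreed within sampling noise. The labels state biological replicates, each a pool.

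Named genes were those with the largest called changes, up to 6 in each direction per comparison, the 6 with the highest mean TPM, and tested genes with any of 24 WRKY numbers, 34 genes in all; WRKY4, WRKY20 (Aa_G69810) and the genes of the other lists were named after their values were seen. The genes and lists were chosen with earlier results of these data known. Trichome markers gave no value. Same-numbered AB and SAM libraries deviated together at stage 2 (correlations of 0.155 to 0.254) and stage 3 (0.134 to 0.19). The number was therefore taken to pair them there, but only in the blocked alternatives. The main fit, which gave the reported differences, standard errors and adjusted p-values, has no such pairing.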

Additional observations from a re-analysis of the deposited data

Results flagged for a closer look

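The step from stage 2 to stage 3 differed between AB and SAM for 7 genes, by the test of the difference itself. The AB step minus the SAM step, on the log2 scale, was -0.95 for Aa_G279730 (WRKY14), 2.17 for Aa_G30000 (WRKY44) and 2.56 for Aa_G252340. It was 6.68 for Aa_G348140, 6.89 for Aa_G489080 (WRKY31), 8.90 for Aa_G46770 (WRKY42-like) and 12.8 for Aa_G55810 (WRKY22). The last values involve groups with no or few reads, depend on the prior count of the fit and are no bound. Aa_G252340 was called under every alternative run. Of 18 alternatives, the call was lost in 7 for WRKY14, 11 for WRKY44, 12 for Aa_G348140, 4 for WRKY31, 8 for WRKY42-like and 12 for WRKY22, each with the same direction. Without AB stage 3 replicate 1 the adjusted p was 0.146 for Aa_G348140, 0.0772 for Aa_G489080, 0.126 for Aa_G46770, 0.139 for Aa_G55810 and 0.0522 for Aa_G30000. Over all alternatives the highest adjusted p was 0.0906 for Aa_G30000 and 0.0839 for Aa_G279730.

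The step from stage 3 to stage 4 differed between the tissues for 12 genes. The AB step minus the SAM step was -7.83 for Aa_G462530 (WRKY40), -5.3 for Aa_G196840 (WRKY46), -2.11 for Aa_G156180 (WRKY31), -1.88 for Aa_G279730 (WRKY14) and -1.66 for Aa_G176340 (WRKY28). It was -1.35 for Aa_G74800 (WRKY18), -1.27 for Aa_G249850, -1.08 for Aa_G373110 (WRKY54) and -0.66 for Aa_G204720 (WRKY15). Small differences were called for Aa_G211230 (WRKY1) at -0.53, Aa_G599460 (WRKY4) at -0.51 and Aa_G472620 at 0.57. Of 18 alternatives, the call was lost in 13 for Aa_G156180, DESeq2 among them, in 10 for Aa_G472620, in 8 each for Aa_G373110 and Aa_G204720 and in 1 for Aa_G462530, with adjusted p-values of at most 0.199, 0.132, 0.113, 0.118 and 0.0608. The WRKY18 call was lost in 2, without AB stage 4 replicate 3, at an adjusted p of 0.0548, and without SAM stage 4 replicate 2, at 0.0652.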

How the results depend on the processing

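Of 163 calls of single genes over the 12 comparisons, 90 were kept under every alternative run, 73 were lost under 1 or more and none changed direction. Of 74 recomputed counts other than those with a library left out, 69 stayed within 1.5 times of the value reported. The exceptions were AB from stage 1 to 2, with 1 gene in DESeq2 and 1 in limma on log2(TPM + 1), AB from stage 2 to 3, with 8 in a fit of the compared libraries alone, and the tissue difference on entering the cold, with 4 in the compared libraries alone and 2 in limma. The cause was not tested. With each library left out, the counts ran from 18 to 23, 17 to 24, 13 to 19 and 3 to 4 for AB against SAM at stages 1 to 4. They ran from 0 to 1, 7 to 13 and 15 to 19 for the 3 AB steps, from 4 to 11, 14 to 21 and 3 to 10 for the 3 SAM steps, and from 2 to 7 and 7 to 15 for the tissue differences of the step into the cold and of the step from stage 3 to 4. Where AB stage 1 was left with 1 library, that library is assumed to vary like the others.

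With the replicate number as a block, the counts were 24, 23, 18 and 6 for AB against SAM, 0, 14 and 18 for the AB steps, 8, 20 and 9 for the SAM steps and 5 and 11 for the tissue differences. In blocked fits of 6 libraries, chosen after seeing the data, they were 24 at stage 2 and 14 at stage 3, where 4 of the 19 genes fell under the filter and Aa_G35190 (WRKY19) missed the threshold at an adjusted p of 0.1. Beyond the calls given in the results, the block ended those of Aa_G41530 in SAM from stage 1 to 2, Aa_G348140 in SAM from stage 3 to 4, Aa_G55810 and Aa_G348140 for the step into the cold, and Aa_G156180 for the step from stage 3 to 4. Depth limits the genes under 1 CPM, where a few reads set a value.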
